A study of Bos taurus with 14 samples.

Results

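The miR-378 family was followed in peripheral white blood cells (PWBC) through its 4 mature members in the deposited table, bta-miR-378, bta-miR-378b, bta-miR-378c and bta-miR-378d. The members were chosen by name, and where a name had more than 1 line in the count table the line with the highest total was used. They are 4 of 1030 mature names, and all 4 are among the 341 miRNAs retained by the filter on low counts, which asks for 1 CPM (counts scaled to a common library total) in 7 heifers or more. Blood was drawn at weaning from 14 Angus-Simmental crossbred heifers, before any breeding treatment, and 1 small RNA library was made per heifer. The 7 fertile heifers (FH) later became pregnant to artificial insemination (AI), and the 7 subfertile heifers (SFH) were not pregnant after the same synchronization and AI protocol and the natural service that followed. All heifers of both groups went through that protocol, and they had been selected for comparable age and weight, so that the groups were defined by the later outcome and not by a treatment. Each library is a different animal and is named here by its group and heifer number.

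miRNAs are short RNAs that guide the silencing complex to messenger RNAs, mainly through pairing of the seed near their 5′ end, and members of a family share that seed. miR-378 is made from an intron of *PPARGC1B*, the gene of the coactivator PGC-1beta, which raises mitochondrial gene expression. It is best known from muscle, liver and fat, where it takes part in the control of mitochondrial metabolism, and in macrophages it is induced by the cytokine that drives alternative activation. The members b, c and d are paralogues of this miRNA with genes of their own.

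RefSeq annotates ARS-UCD2.0, a later assembly than the one used for the files, so positions are given here by gene names only, and 5 precursor genes were matched by name to the 4 members. The precursor bta-mir-378-1 overlaps *PPARGC1B* and bta-mir-378-2 overlaps *CALCR*, the calcitonin receptor gene. bta-mir-378c overlaps *ZNF521*, a zinc finger gene of blood progenitors, and bta-mir-378d overlaps *MSI2*, an RNA-binding protein of blood stem cells. bta-mir-378b overlaps no gene and lies between *THY1* and *NECTIN1*, a pair of cell surface protein genes. The members therefore come from separate loci, and only bta-miR-378 has 2 precursors.

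Library totals on mature miRNAs ran from 1754971 to 5468341 counts over the FH heifers and from 1831960 to 3958469 over the SFH heifers. The leukocyte miRNAs bta-miR-142-3p, bta-miR-142-5p, bta-miR-223 and bta-miR-155 were present in 14 of 14 heifers, with a summed level of 28187 to 45662 CPM in FH and 29663 to 54660 CPM in SFH after TMM scaling (trimmed mean of M-values, which corrects each library for its composition). SFH heifer 21 stood apart in muscle miRNAs, with a summed level of 347 CPM against 5.83 to 137 CPM in the other 13 heifers after TMM scaling. In such a mixed preparation, fewer cells of a type and less of a miRNA per cell cannot be told apart.

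bta-miR-378 dominated the family. Its level in FH was 2225 CPM in the lowest heifer, 2594 CPM at the median and 3494 CPM in the highest. In SFH it was 2299 CPM in the lowest heifer, 3001 CPM at the median and 5309 CPM in the highest. The groups overlapped, with SFH heifers 28 and 30 above all 7 FH heifers and FH heifer 20 below all 7 SFH heifers. By mean CPM it ranked 49th of the 341 miRNAs, and its 134102 counts over the 14 heifers left little counting error, with 4357 counts in the library with the fewest. It made up 92.9% to 96.1% of the summed CPM of the family in every heifer.

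bta-miR-378c was the second most abundant member. It had 72.5 CPM in the lowest FH heifer, 124 CPM at the median and 138 CPM in the highest, against 85.2, 127 and 202 CPM in SFH. The medians were close, and the upper ends differed, since SFH heifers 26, 28 and 30 (195, 202 and 198 CPM) lay above every FH heifer while FH heifers 20 and 25 lay below every SFH heifer. After TMM scaling SFH heifer 32, with 78.9 CPM, lay below FH heifer 20, with 80.8 CPM. The share of bta-miR-378c in the family sum ranged from 2.69% to 6.04%.

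bta-miR-378b and bta-miR-378d were scarce. bta-miR-378b had 5.42, 15.1 and 38.3 CPM in the lowest, median and highest FH heifer and 3.76, 22.1 and 44.6 CPM in SFH. bta-miR-378d had 4.93, 13.9 and 18.2 CPM in FH and 2.93, 17.5 and 40.4 CPM in SFH, in the same order. Both groups spanned each other's medians for both members, and for bta-miR-378d the SFH heifers held both the lowest value (heifer 28) and the 3 highest (heifers 23, 26 and 30). A count was present in all 14 heifers for both, but the counts were as low as 10 for bta-miR-378b (SFH heifer 21) and 8 for bta-miR-378d (SFH heifer 17). For that value of bta-miR-378d, 4.11 CPM, the exact 95% Poisson interval was 1.77 to 8.09 CPM. PCR copies were not removed, as far as the methods say, and the interval holds for counting error alone.

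**Figure D1:**
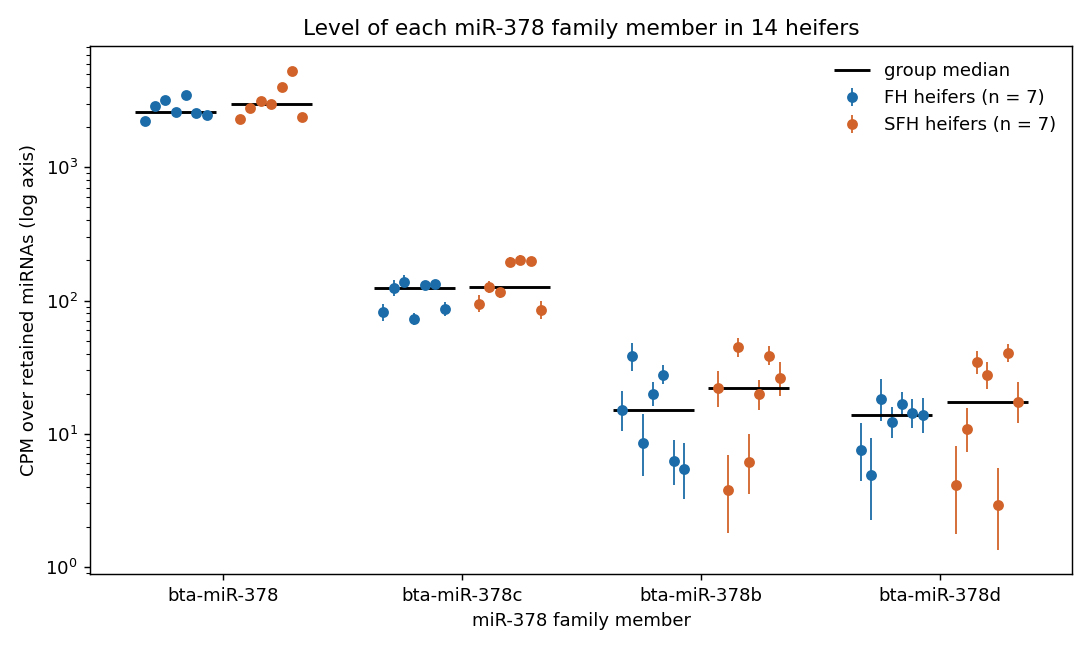
Level of each miR-378 family member (CPM over the retained miRNAs, log axis) in 7 FH (blue) and 7 SFH (orange) heifers, with 1 point per heifer, the exact 95% Poisson interval of its count as a vertical line and the group median as a black bar. bta-miR-378 lies between 2225 and 5309 CPM, bta-miR-378c between 72.5 and 202 CPM, and the other members between 2.93 and 44.6 CPM, with the groups overlapping for every member.

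The order of the levels was tested within heifers by the log2 ratio of neighbouring members, with exact two-sided sign-flip tests over all 16384 sign arrangements of the 14 heifers. Counts are of reads, whatever their length, so CPM was compared without division by length. Whether a read was counted on more than 1 line was not tested. bta-miR-378 was above bta-miR-378c in 14 of 14 heifers, by 4.60 ± 0.30 on the log2 scale (SD, n = 14), which is a mean ratio of 24.2. bta-miR-378c was above bta-miR-378b in 14 of 14 heifers, by 2.92 ± 1.25 on the log2 scale (SD, n = 14). Both exact p-values were 0.000122, the smallest this test can give, and 0.000183 after Benjamini-Hochberg adjustment over the 3 neighbouring pairs. The last pair was not ordered, since bta-miR-378b exceeded bta-miR-378d in 8 of 14 heifers and the mean log2 ratio of 0.28 ± 1.56 lay within the spread (SD, n = 14; exact sign-flip p = 0.507).

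The scarce members also differed most between heifers. The standard deviation of log2(TMM CPM + 0.5) over the 14 heifers was 0.36 for bta-miR-378, 0.51 for bta-miR-378c, 1.11 for bta-miR-378b and 1.08 for bta-miR-378d. Counting alone would give a mean of 0.016, 0.080, 0.24 and 0.27 in the same order, so the spread between heifers was wider than counting error for each member. bta-miR-378 was among the steadier miRNAs, as 11.7% of the 341 had a smaller standard deviation. Among the miRNAs nearest to each member in mean CPM, up to 20 on either side and without the family itself, 15 of 40 had a smaller standard deviation than bta-miR-378, 14 of 40 than bta-miR-378c, 4 of 39 than bta-miR-378b and 4 of 39 than bta-miR-378d. The scarce paralogues were therefore variable in absolute terms and steadier than most miRNAs of their level.

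Whether the family differs at weaning between heifers with different later outcomes was tested with edgeR's quasi-likelihood test across the 341 miRNAs, SFH relative to FH. A miRNA was called where p did not exceed 0.05 and the log2 fold change was 0.5 or more in either direction. None of the 4 members was called in edgeR, where 13 of 341 miRNAs were (3.81%), and 0 of the 4 reached an unadjusted p of 0.05 in edgeR, DESeq2 or limma-voom. After Benjamini-Hochberg adjustment, 0 of the 341 miRNAs passed in edgeR (0%), while 20 of them reached 0.05 before adjustment (5.87%) and DESeq2 gave 2 adjusted calls, neither of them a member.

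For bta-miR-378 the FH mean was 2783 ± 447 CPM and the SFH mean 3268 ± 1061 CPM (SD, n = 7 per group). The log2 fold change was 0.17 with a standard error of 0.20 and a 95% interval of −0.25 to 0.58 (Benjamini-Hochberg adjusted p = 0.947 in edgeR). The exact two-sided permutation test over 3432 splits of the heifers gave p = 0.572 on log2(TMM CPM + 0.5). The fold change rested on SFH heifer 30, without which it was −0.0023. The difference was thus within the spread, and the interval includes increases above the called size of 0.5 but no decrease of that size.

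bta-miR-378c averaged 110 ± 27.9 CPM over the FH heifers and 146 ± 51.2 CPM over the SFH heifers (SD, n = 7 per group). Its log2 fold change was 0.34 with a standard error of 0.31 (95% interval −0.30 to 0.99, Benjamini-Hochberg adjusted p = 0.947 in edgeR), and the exact permutation p was 0.279. It ranked 95th of the 341 by edgeR's p-value, the first of the family.

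bta-miR-378b averaged 17.3 ± 12.3 CPM for FH against 23.0 ± 15.2 CPM for SFH (SD, n = 7 per group), with a log2 fold change of 0.36 (95% interval −1.08 to 1.79). Its exact permutation p was 0.675. bta-miR-378d averaged 12.6 ± 4.82 CPM for FH against 19.7 ± 14.8 CPM for SFH (SD, n = 7 per group), with a log2 fold change of 0.57 (95% interval −0.93 to 2.06) and an exact permutation p of 0.760. The value for bta-miR-378d was 0.18 in limma-voom and 0.18 as a difference of mean log2 levels. With this number of heifers and this spread between them, the intervals of these scarce members are too wide to show a change of the called size. All 4 fold changes were above 0, as were 55.1% of the 341, and the median was 0.35 over the 4 members and 0.06 over all 341.

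**Figure D2:**
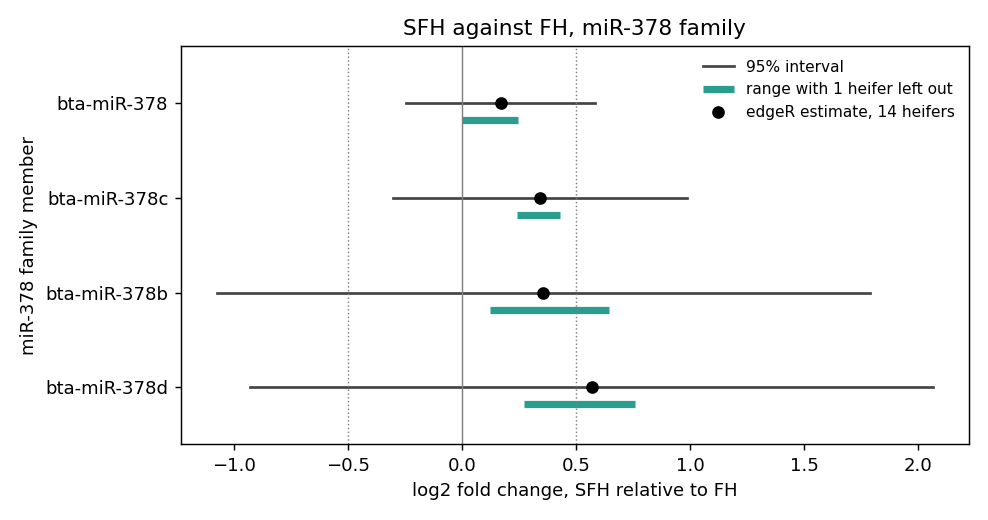
Log2 fold change of each member, SFH relative to FH, from edgeR on 14 heifers (black point) with its 95% interval (grey line), and the range of the value when 1 heifer at a time is left out (green bar). All 4 intervals include 0, the dotted lines mark the called size of 0.5, and the green bar of bta-miR-378 reaches 0 because of SFH heifer 30.

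Whether the paralogues vary together was tested over the 14 heifers for the 6 pairs of members, on log2(TMM CPM + 0.5) with permutation tests of 100000 resamples and Benjamini-Hochberg adjustment over the 6 pairs. bta-miR-378 and bta-miR-378c rose and fell together, with Pearson's r = 0.83 (permutation p = 0.00011, adjusted p = 0.00066) and Spearman's rho = 0.86 (permutation p = 0.00019, adjusted p = 0.0011). Leaving out the 2 heifers with the most extreme levels of bta-miR-378 (farthest from its median) gave r = 0.77. In every relation below, the 2 farthest heifers are likewise those farthest from the median of 1 measure, within the group for group values. For a pair of members this measure was the member first in alphabetical order. For depth it was the library total, for a marker list its summed level, and outside the family the other miRNA. Heifers 17, 20, 31 and 32 were low and heifers 24, 27, 28, 29 and 30 high in both miRNAs, whereas heifer 26 was high in bta-miR-378c and near the middle in bta-miR-378.

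The relation of this pair was also computed within each group, and the difference between the groups was not tested. In FH r was 0.82 (exact permutation p = 0.0312) and rho was 0.79 (exact permutation p = 0.0480, n = 7), and in SFH r was 0.85 (exact permutation p = 0.0127) and rho was 0.89 (exact permutation p = 0.0123, n = 7). After adjustment over the 6 pairs these p-values of r were 0.187 in FH and 0.0762 in SFH (exact permutation, n = 7). Leaving out 1 heifer at a time gave r of 0.80 to 0.89 over the remaining heifers. Of the 340 other retained miRNAs, bta-miR-378c had the highest r with bta-miR-378, and 0.179% of all 57970 pairs of retained miRNAs had an r at least as high (median of all pairs 0.010). Pairs of miRNAs share the libraries and their scaling, so these shares are a description.

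Near-identical paralogues can share reads. The ratio of bta-miR-378 to bta-miR-378c was 15.4 in SFH heifer 26 and 35.8 in FH heifer 25, with a median of 25.4 over the 14 heifers. The standard deviation of its log2 value was 0.30, against a mean counting error of 0.080 for the scarcer partner. Whether reads of bta-miR-378 were counted on bta-miR-378c was not tested.

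The other pairs did not pass the adjustment. bta-miR-378 and bta-miR-378d had r = 0.36 (permutation p = 0.209) and rho = 0.46 (permutation p = 0.0984), with r = 0.55 without the 2 farthest heifers. The r of this pair was 0.67 without SFH heifer 28, where the adjusted permutation p was 0.0319, and 0.088 without SFH heifer 30, so single heifers set its value. bta-miR-378 and bta-miR-378b had r = 0.27 (permutation p = 0.365) and rho = 0.18 (permutation p = 0.543), and r = −0.023 without the 2 farthest heifers. bta-miR-378c had r = 0.22 with bta-miR-378d (permutation p = 0.444, rho = 0.27, permutation p = 0.342, r = 0.58 without the 2 farthest heifers). With bta-miR-378b it had r = −0.057 (permutation p = 0.845, rho = −0.046, permutation p = 0.880, r = −0.23 without the 2 farthest heifers). Within the groups, r of the pairs with bta-miR-378 was 0.23 for bta-miR-378b and 0.55 for bta-miR-378d in FH, and 0.26 and 0.30 in SFH. Both SFH values rested on heifer 30, without which they were −0.087 and −0.13, and without the 2 farthest SFH heifers they were 0.017 and −0.57. For the pairs with bta-miR-378c r was −0.0058 for bta-miR-378b and 0.37 for bta-miR-378d in FH, and −0.16 and 0.15 in SFH. Without heifer 30 these SFH values were −0.41 and −0.081, and without the 2 farthest SFH heifers 0.17 and 0.74.

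For the scarce pair no relation was detected over the 14 heifers. bta-miR-378b and bta-miR-378d had r = −0.013 (permutation p = 0.965) and rho = 0.17 (permutation p = 0.564), with r = −0.048 without the 2 farthest heifers, −0.53 within FH and 0.17 within SFH. Without heifer 30 the SFH value was −0.029, and without the 2 farthest SFH heifers it was 0.93 over the remaining ones. Their ratio was lowest in SFH heifer 26 (0.222) and highest in FH heifer 22 (7.78). SFH heifer 30 was high in all 4 members, SFH heifer 23 was high in both scarce members, and FH heifer 22 and SFH heifers 17 and 28 had bta-miR-378b above 19 CPM with bta-miR-378d below 5 CPM.

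**Figure D3:**
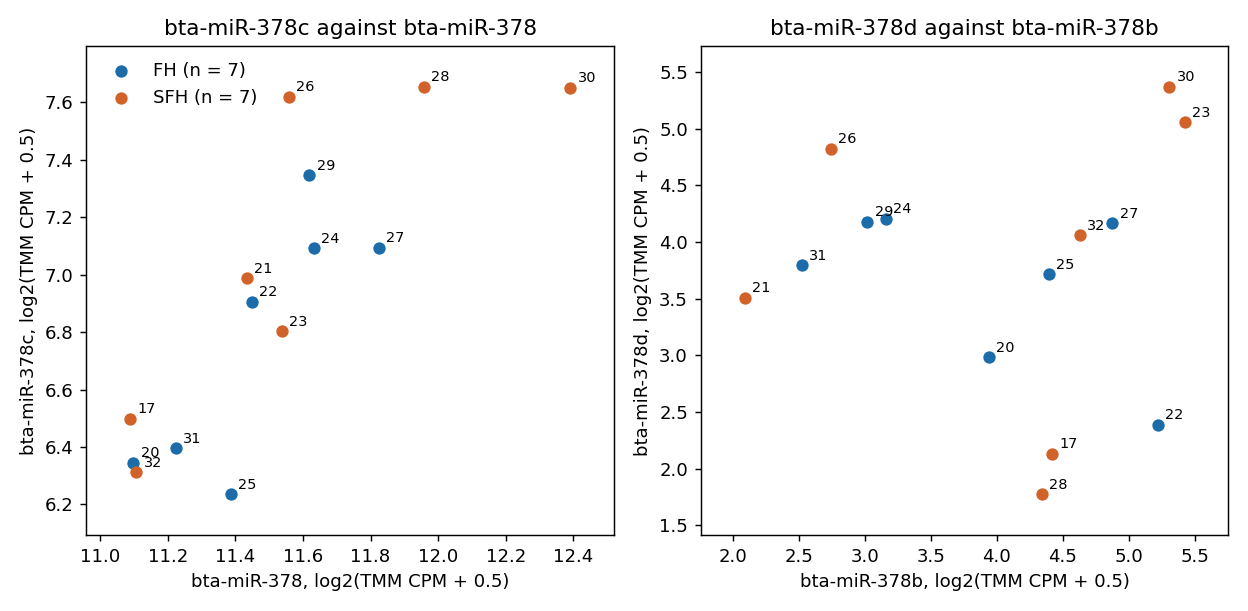
Levels of paired members in 14 heifers (log2(TMM CPM + 0.5) on both axes, blue FH, orange SFH, numbers are heifers), with bta-miR-378c against bta-miR-378 on the left and bta-miR-378d against bta-miR-378b on the right. The left points lie along a rising line (r = 0.83) in both groups, and the right points are scattered (r = −0.013).

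bta-miR-378 is listed on 2 lines of the count table, with totals of 131755 and 134102 counts. The second line held 0.983 to 1.07 times the counts of the first over the 14 heifers, and more of them in 12 of 14. The lines are not named by precursor, and their counts were nearly the same. Whether the same reads were counted on both lines was not tested. With every line kept as its own entry, the log2 fold changes were 0.084 and 0.090, and neither line of bta-miR-378 was called in edgeR.

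bta-miR-378 was compared with the library total, the depth of each heifer. Over the 14 heifers, log2(TMM CPM + 0.5) had r = 0.49 with the log2 total (permutation p = 0.0745, adjusted over the 4 members p = 0.298) and rho = 0.35 (permutation p = 0.221), with r = 0.55 without the 2 farthest heifers. Within SFH r was 0.93 (exact permutation p = 0.0048, adjusted over the 4 members p = 0.0190, n = 7) and rho was 0.79 (exact permutation p = 0.0480, n = 7). This r was 0.89 without heifer 30 and 0.85 without the 2 farthest heifers. Within FH r was 0.34 (exact permutation p = 0.444, n = 7) and rho was 0.18 (exact permutation p = 0.713, n = 7), with r = 0.88 without the 2 farthest heifers. SFH heifers with larger libraries thus had more bta-miR-378 after TMM scaling, and the difference between the groups in this relation was not tested. With CPM by library totals only, r over the 14 heifers was 0.34 in place of 0.49. The part of depth in the shared variation of bta-miR-378 and bta-miR-378c was not tested. With the log2 total as a covariate, the log2 fold change of bta-miR-378 was 0.21 and it was not called.

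The other members were compared with depth in the same way, and the difference between members was not tested. Over the 14 heifers r with the log2 total was 0.23 for bta-miR-378c (permutation p = 0.420, rho = 0.17, permutation p = 0.562), 0.36 for bta-miR-378d (permutation p = 0.206, rho = 0.27, permutation p = 0.349) and 0.065 for bta-miR-378b (permutation p = 0.824, rho = 0.059, permutation p = 0.845). Without the 2 farthest heifers these r were 0.48, 0.39 and −0.13. Within SFH r was 0.78 for bta-miR-378c (exact permutation p = 0.0474, adjusted p = 0.0948, n = 7), and within FH it was 0.021 (exact permutation p = 0.970, n = 7). Without the 2 farthest heifers of each group, r of bta-miR-378c was 0.55 in SFH and 0.54 in FH. For bta-miR-378d r was 0.40 within SFH, or 0.13 without heifer 30, and 0.55 within FH. For bta-miR-378b it was 0.22 within SFH, or −0.070 without heifer 30, and 0.017 within FH. Leaving out the 2 farthest heifers of the group gave 0.34 in SFH and 0.89 in FH for bta-miR-378d. The same step gave 0.15 in SFH and 0.36 in FH for bta-miR-378b.

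**Figure D4:**
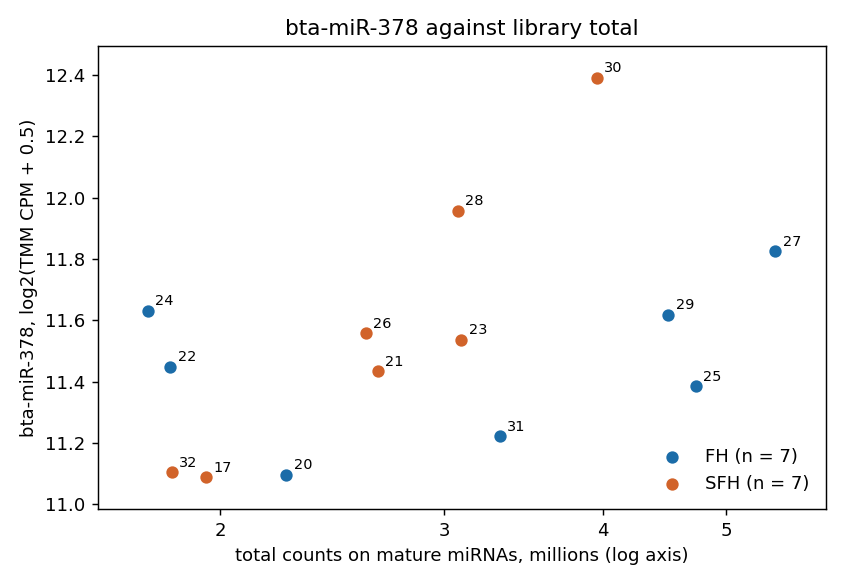
Level of bta-miR-378 (log2(TMM CPM + 0.5)) against the total counts on mature miRNAs (log axis) in 7 FH (blue) and 7 SFH (orange) heifers, numbered by heifer. The SFH points rise with the total (r = 0.93, n = 7), with heifers 17 and 32 at the lower left and heifer 30 at the top, and the FH points have r = 0.34.

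Markers of the cells that a PWBC preparation can hold were set beside bta-miR-378, as the log2 summed level of each list, with Benjamini-Hochberg adjustment over 6 lists. The lymphocyte list holds bta-miR-150, bta-miR-342 and bta-miR-181a, and the platelet and endothelial list bta-miR-126-3p and bta-miR-126-5p. The myeloid list holds bta-miR-223, which is also in the leukocyte list, and bta-miR-146b. Their medians were 17974 and 96.6 CPM after TMM scaling, so the myeloid sum is nearly all bta-miR-223. Singly, these 2 had r of 0.13 and 0.40 with bta-miR-378. The r over the 14 heifers was 0.47 for leukocytes in general (permutation p = 0.0880, rho = 0.37, permutation p = 0.190), 0.15 for lymphocytes (permutation p = 0.612, rho = 0.073, permutation p = 0.808) and 0.14 for myeloid cells (permutation p = 0.643, rho = 0.0066, permutation p = 0.988). It was 0.33 for red blood cells (permutation p = 0.246, rho = −0.23, permutation p = 0.427), −0.085 for platelets and endothelium (permutation p = 0.755, rho = −0.037, permutation p = 0.903) and 0.050 for muscle (permutation p = 0.861, rho = −0.0022, permutation p = 1.00). No list passed the adjustment, the smallest adjusted permutation p being 0.528. Without the 2 farthest heifers r was 0.11, −0.27, 0.080, −0.22, 0.026 and −0.059 in the order of the lists.

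The red blood cell list, which holds bta-miR-451, bta-miR-486 and bta-miR-144 (no count in any heifer), gave opposite signs in the groups. Its r with bta-miR-378 was −0.85 in FH (exact permutation p = 0.0194, adjusted p = 0.117, n = 7) and 0.61 in SFH (exact permutation p = 0.146, n = 7). The SFH value rested on heifer 30, without which it was −0.036, and the difference between the groups was not tested. Without the 2 farthest heifers of each group r was −0.59 in FH and 0.50 in SFH. The summed level of this list was 1552 to 3592 CPM in FH and 1470 to 9345 CPM in SFH after TMM scaling, and its part in the level of bta-miR-378 was not tested. Within groups the r of the leukocyte list was 0.0090 in FH and 0.65 in SFH, that of the lymphocyte list −0.65 and 0.49, that of the myeloid list −0.25 and 0.33, that of the platelet and endothelial list −0.13 and 0.0059, and that of the muscle list −0.057 and 0.063. Heifer 30 also weighed on the SFH values of the white cell lists. Without it r within SFH was 0.39 for leukocytes, 0.11 for lymphocytes and −0.13 for myeloid cells. Leaving out the 2 farthest SFH heifers gave 0.61, 0.15 and −0.61. The FH values of these lists moved as well, to −0.26, −0.94 and −0.91 without the 2 farthest FH heifers.

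Muscle, where miR-378 is abundant, was followed through 6 markers. Of these 6 markers, bta-miR-1 and bta-miR-499 were retained, bta-miR-133a, bta-miR-133b and bta-miR-206 had counts in 4, 2 and 2 heifers, and bta-miR-208b had none. The summed muscle level was 5.83 to 137 CPM in FH and 19.4 to 347 CPM in SFH after TMM scaling, below the level of bta-miR-378 in every heifer. bta-miR-499 alone made up most of this sum in every heifer except FH heifer 20 and SFH heifer 21. The 2 retained markers went opposite ways, with r against bta-miR-378 over the 14 heifers of −0.53 for bta-miR-1 and 0.14 for bta-miR-499. SFH heifer 21 had the highest value of all 5 detected muscle markers, among them 176 CPM of bta-miR-1, and its sum of 347 CPM exceeded every value of bta-miR-378c. The next highest sum was 137 CPM, in FH heifer 20, and the median of the 14 was 42.6 CPM. Without TMM scaling, SFH heifer 21 had 2770 CPM of bta-miR-378 and 127 CPM of bta-miR-378c, 8th and 7th among the 14 heifers. FH heifer 20 then had the lowest bta-miR-378. After TMM scaling SFH heifer 17 was lowest, with 2177 CPM against 2191 CPM in FH heifer 20. Without SFH heifer 21 the log2 fold changes were 0.20 for bta-miR-378, 0.54 for bta-miR-378b, 0.37 for bta-miR-378c and 0.67 for bta-miR-378d, none of them called in edgeR, and the r of bta-miR-378 and bta-miR-378c was 0.83. The part of muscle in the levels of the family was not tested. The 6 cell lists had 2 to 4 retained markers each. Of these markers, 0 were called between SFH and FH in edgeR, 0 reached 0.05 before adjustment, and DESeq2 called 0. Over all 341 miRNAs, edgeR called 13 (3.81%) and DESeq2 16, so 0 among so few markers lies near these shares.

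Other miRNAs linked to energy metabolism were described in the same way. Of the 12 listed, 7 were retained. The number called was 0 in edgeR and in DESeq2, and none reached 0.05 before adjustment in either. Over all 341 miRNAs, edgeR called 13 (3.81%) and DESeq2 16, while 20 (5.87%) and 21 reached 0.05 before adjustment. A count of 0 among 7 lies near these shares. The median log2 fold change of the 7 retained metabolic miRNAs was 0.20, with 5 of 7 above 0. bta-miR-103, an intronic miRNA of pantothenate kinase genes, averaged 10287 ± 1707 CPM for FH against 12866 ± 2091 CPM for SFH (SD, n = 7 per group), and its log2 fold change was 0.25 (standard error 0.15, Benjamini-Hochberg adjusted p = 0.890 in edgeR). Its relative bta-miR-107 averaged 450 ± 63.9 CPM for FH against 542 ± 181 CPM for SFH (SD, n = 7 per group), and its log2 fold change was 0.20 (standard error 0.22). bta-miR-33a and bta-miR-33b, which lie in sterol regulator genes, had no count in any heifer, which allows up to 0.549 to 1.71 CPM by library (3 counts, counting error only). bta-miR-103 was thus more abundant than bta-miR-378, and bta-miR-107 less.

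Outside the family, the miRNA most like bta-miR-378 over the 14 heifers was bta-miR-26a, which had a median of 106804 CPM. Its r was 0.69 (permutation p = 0.0063) and its rho 0.81 (permutation p = 0.00075), with r = 0.80 without the 2 farthest heifers, 0.69 within FH and 0.97 within SFH. Next came bta-miR-1388-5p (r = 0.63, rho = 0.55, r = 0.53 without the 2 farthest heifers) and bta-miR-95 (r = 0.60, rho = 0.56, r = 0.68 without the 2 farthest heifers). bta-miR-2285ar and bta-miR-2285bd followed with r = 0.60 and rho = 0.66 each, having identical counts at a median of 2.31 CPM. The permutation p-values of r of these 4 were 0.0145 to 0.0197 and those of rho 0.0121 to 0.0441. The lowest r were −0.73 for bta-miR-1246 (permutation p = 0.0089, rho = −0.51, permutation p = 0.0674) and −0.66 for bta-miR-2419-5p (permutation p = 0.0102, rho = −0.59, permutation p = 0.0308), with −0.14 and −0.53 without the 2 farthest heifers. None of the 337 miRNAs outside the family passed adjustment of the permutation p-values over the 337 (smallest adjusted p = 0.606, 25 at or under 0.05 before adjustment). Among all 340 others, bta-miR-378d ranked 52nd and bta-miR-378b 76th by r with bta-miR-378.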

How the data were processed

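Small RNA of PWBC from 14 heifers was sequenced by the study, and the members and lists used here were chosen with earlier results of these data known. Reads had adapters and end bases trimmed with Cutadapt and were aligned with miRDeep2 to ARS-UCD1.2 and miRBase. Raw counts per mature miRNA and precursor line were deposited without normalization. The authors also deposited CPM, made with edgeR 3.28.1 (submitters' processing notes), which equal the counts divided by the retained total of each heifer. No removal of PCR copies is described.

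The line with the highest total per name was kept, and the 341 miRNAs that reached 1 CPM in 7 heifers or more were tested with edgeR 4.0.16 (TMM, quasi-likelihood, group as only term) in R 4.3.3. DESeq2 1.42.0, the study's tool in a later version, and limma 3.58.1 were alternatives. A pseudocount of 0.5 was used for logarithms. Single values were tested by exact permutation, and correlations by 100000 resamples, or exactly within 7 heifers, in Python 3.11.15 with numpy 2.4.6 and scipy 1.17.1. Every test took the heifer as its unit. Heifer numbers are not shared between groups, so no pairing exists. The scripts were tested on simulated data. Totals of 1754971 to 5468341 counts per heifer set the depth. Besides the members, the text names the 5 miRNAs with the highest and the 2 with the lowest r with bta-miR-378, markers of the lists, and of 12 metabolic miRNAs any called and bta-miR-33a, bta-miR-103 and bta-miR-107. bta-miR-33b was named after its values were seen.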

Additional observations from a re-analysis of the deposited data

How the results depend on the processing

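The 4 members stayed uncalled under RLE scaling, library totals, DESeq2, limma-voom, no filter, at least 10 counts in every heifer, every precursor line kept and the log2 total as a covariate, with fold changes above 0 in each. bta-miR-378d could not be fitted under the filter of 10 counts, since it has 8 counts in 1 heifer. Over these settings the log2 fold changes were 0.090 to 0.23 for bta-miR-378, 0.28 to 0.41 for bta-miR-378b, 0.27 to 0.41 for bta-miR-378c and 0.18 to 0.66 for bta-miR-378d. With 1 heifer left out they were −0.0023 to 0.24, 0.12 to 0.65, 0.24 to 0.43 and 0.27 to 0.76 in the same order. The number of the 341 miRNAs called, 13, was 23 in limma-voom, 126 of 614 without a filter, 20 of 434 entries with every line kept, and 11 to 22 with 1 heifer left out (22 without FH heifer 24 and 20 without SFH heifer 26).

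Pseudocounts of 0.1 and 1 left every permutation test of a member on its side of 0.05, and a pseudocount of 1 left the order of the levels as it was. The r of bta-miR-378 and bta-miR-378c was 0.80 to 0.83 with library totals, a pseudocount of 1 or group means subtracted. The r of bta-miR-378b and bta-miR-378d was 0.0013 with library totals. With 1 heifer left out, r ranged from 0.048 (without SFH heifer 30) to 0.34 for bta-miR-378 and bta-miR-378b, 0.088 (without SFH heifer 30) to 0.67 (without SFH heifer 28) for bta-miR-378 and bta-miR-378d, 0.053 (without SFH heifer 30) to 0.56 (without SFH heifer 28) for bta-miR-378c and bta-miR-378d, −0.23 to 0.082 for bta-miR-378b and bta-miR-378c, −0.19 to 0.11 for bta-miR-378b and bta-miR-378d, −0.054 to 0.19 for bta-miR-378b and the total, and 0.13 (without SFH heifer 32) to 0.44 (without FH heifer 25) for bta-miR-378c and the total. For bta-miR-378 and the marker lists it ranged from 0.21 to 0.61 (leukocytes), −0.21 to 0.28 (lymphocytes), −0.19 to 0.31 (myeloid cells), −0.36 to 0.45 (red blood cells), −0.16 to 0.024 (platelets and endothelium) and −0.11 to 0.20 (muscle), and its lowest values for the first 4 lists were those without SFH heifer 30. The cause of these changes was not tested. CPM per base of the mature sequence was not run. Counts of 8 to 160 per heifer gave bta-miR-378b and bta-miR-378d a mean counting error of 0.24 and 0.27 on the log2 scale. The SD between heifers was larger, at 1.11 and 1.08.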
